A study of Mus musculus with 35 samples.

Results

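The 40 genes described here encode proteins of DNA replication and the cell cycle. They were grouped by the phase in which their products mainly act, 25 at G1/S and in replication and 15 at G2/M. For each gene, probe sets whose platform annotation named that gene alone were taken, and the probe set with the highest mean over the 35 arrays stood for the gene. In this way 39 of the 40 genes were measured, among 17097 genes in all, and Ccnb1 (cyclin B1) had no probe set that named it alone. The livers came from adult male wild-type C57Bl/6 mice, an inbred laboratory strain, each of which breathed styrene vapour or air once for 6 hours and was killed the following morning. The 6 styrene groups received 1, 5, 10, 20, 40 and 120 ppm and the control group received air (0 ppm), with 5 mice per group and 1 Affymetrix 3' expression array per liver. Styrene is an aromatic solvent and plastics monomer, and the design asks how liver transcripts change with its concentration in air.

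A cell commits to division in G1, when D-type cyclins with CDK4 and cyclin E with CDK2 inactivate the RB protein and free E2F factors to switch on replication genes. The MCM2-7 helicase is loaded at origins by CDC6 and CDT1 and, once fired, unwinds DNA for the polymerases, which PCNA holds on the template. Later, cyclin A and cyclin B with CDK1 drive mitosis, the kinase WEE1 holds CDK1 back, and the spindle checkpoint delays chromosome separation until all kinetochores are attached. Adult hepatocytes are largely quiescent, so transcripts of these genes are usually scarce in an undisturbed liver.

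Promoter sequences of RefSeq on build GRCm38.p6, from 250 bases before to 50 bases after each transcript start, were matched for 30 of the 40 genes, 10 of them among the 14 genes called at 120 ppm. The 30 genes had 33 windows, because Ccnd3, Fen1 and Mcm7 each had 2. Mcm4, Gins2, Pole, Ccnd1, Ccnd2, Ccne2, Ccna2, Aurkb, Foxm1 and Wee1 were not matched. Both strands were searched for the E2F motif (TTTGGCGC, TTTCCCGC, TTTCGCGC or TTTGCCGC), the cell cycle homology region or CHR (TTTGAA or TTCGAA), the CCAAT box (CCAAT), the E-box (CACGTG) and the D-box (TTATGTAA, TTACATAA, TTACGTAA or TTATATAA). Among the called genes, the windows of Rfc4, which had the smallest p, and of Ccne1 hold no searched motif, so neither is printed. The following 6 promoters belong to genes with lower values at 120 ppm, the first 4 to MCM helicase subunits and the last 2 to G2/M genes. They were taken as those called genes with the smallest p whose windows hold a searched motif. Each runs 5′ to 3′ on the strand of its gene, and capitals mark the motif letters, read on either strand. The windows are chr6:88898731-88899030 (minus strand) for Mcm2, chr1:20820263-20820562 (minus) for Mcm3, chr1:128359656-128359955 (minus) for Mcm6, chr5:138171834-138172133 (minus) for Mcm7 (1 of its 2 windows), chr2:118597961-118598260 (plus) for Bub1b and chr9:70421505-70421804 (minus) for Ccnb2.
Mcm2: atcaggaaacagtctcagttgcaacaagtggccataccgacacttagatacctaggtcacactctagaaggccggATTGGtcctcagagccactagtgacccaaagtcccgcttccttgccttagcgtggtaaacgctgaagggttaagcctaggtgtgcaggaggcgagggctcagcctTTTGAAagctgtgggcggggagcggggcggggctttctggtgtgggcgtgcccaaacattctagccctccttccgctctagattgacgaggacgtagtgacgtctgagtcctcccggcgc
Mcm3: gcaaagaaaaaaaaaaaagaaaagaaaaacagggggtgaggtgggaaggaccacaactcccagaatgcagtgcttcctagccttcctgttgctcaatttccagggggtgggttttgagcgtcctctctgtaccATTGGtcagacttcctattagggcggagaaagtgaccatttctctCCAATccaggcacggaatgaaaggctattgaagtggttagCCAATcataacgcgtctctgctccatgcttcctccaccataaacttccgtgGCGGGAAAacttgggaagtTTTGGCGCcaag
Mcm6: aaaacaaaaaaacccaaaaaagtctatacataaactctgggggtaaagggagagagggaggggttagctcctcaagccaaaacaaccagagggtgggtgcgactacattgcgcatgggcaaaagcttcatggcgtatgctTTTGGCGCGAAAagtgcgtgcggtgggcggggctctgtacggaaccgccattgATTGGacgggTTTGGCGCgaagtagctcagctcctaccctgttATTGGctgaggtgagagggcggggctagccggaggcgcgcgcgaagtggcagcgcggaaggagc
Mcm7: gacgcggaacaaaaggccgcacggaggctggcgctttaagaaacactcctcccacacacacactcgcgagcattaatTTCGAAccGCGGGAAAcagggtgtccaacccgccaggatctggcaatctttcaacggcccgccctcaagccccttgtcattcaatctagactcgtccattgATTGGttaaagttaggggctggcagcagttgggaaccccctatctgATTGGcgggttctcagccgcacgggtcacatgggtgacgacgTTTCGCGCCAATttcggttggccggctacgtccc
Bub1b: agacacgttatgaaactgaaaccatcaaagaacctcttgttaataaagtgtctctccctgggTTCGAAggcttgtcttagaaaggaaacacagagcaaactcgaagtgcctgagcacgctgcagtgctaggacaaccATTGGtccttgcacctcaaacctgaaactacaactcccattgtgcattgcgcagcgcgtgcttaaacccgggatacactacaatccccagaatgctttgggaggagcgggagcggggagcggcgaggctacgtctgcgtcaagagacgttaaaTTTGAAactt
Ccnb2: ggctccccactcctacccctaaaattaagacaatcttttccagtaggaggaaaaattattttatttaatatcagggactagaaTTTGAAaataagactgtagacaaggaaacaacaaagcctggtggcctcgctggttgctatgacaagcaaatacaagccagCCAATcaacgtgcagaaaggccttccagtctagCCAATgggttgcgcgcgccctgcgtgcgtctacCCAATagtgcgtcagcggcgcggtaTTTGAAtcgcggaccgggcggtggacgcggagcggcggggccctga
In the Mcm7 window an E2F match overlaps a CCAAT match, and in the Mcm6 window a pair of E2F matches on opposite strands overlap.

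The E2F motif stood in 7 of the 22 windows of G1/S genes (those of Cdc6, Cdk2, Cdt1, Mcm3, Mcm5 and Mcm6 and 1 of Mcm7) and in 1 of 11 windows of G2/M genes (Cdk1), against 2.26% of all 32851 windows in the table. The CHR stood in 9 of 11 G2/M windows and in 3 of 22 G1/S windows (those of Mcm2 and 1 each of Fen1 and Mcm7), against 19.2% of all. The CCAAT box was found in 10 of 11 G2/M and 12 of 22 G1/S windows, against 37.4% of all. The E-box was found in 3 of 22 G1/S windows (Cdk4, Tyms and 1 of Fen1) and in 0 of 11 G2/M windows, against 7.15% of all, and the D-box in 0 of the 33, against 1.59% of all. A match is a description of letters in a window and does not show that a factor binds there.

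At 120 ppm, 5 of the 6 subunits of the replication helicase (all but Mcm4) and the D-type cyclin genes Ccnd1 and Ccnd2 fell. The helicase loader Cdc6 also fell, at a probe set near the bottom of the signal range. The CDK1 inhibitor Wee1 rose. The loader Cdt1, the third D-type cyclin gene Ccnd3, the proliferation marker Mki67 and the sliding clamp Pcna were not called at 120 ppm. This holds for the probe set that stood for each gene, and a second one of Ccnd3 was called higher. A gene was called where limma's adjusted p was below 0.05, with Benjamini-Hochberg adjustment over all 45037 probe sets tested, and changes are differences of deposited log2 values, styrene minus air. At 120 ppm 3 genes rose and 11 fell of the 39, where 11.2% of all 17097 genes were called higher and 7.99% lower. Over all probe sets tested the shares at 120 ppm were 13% higher and 6.4% lower. Subtracting from each array its own median gave 1 higher and 13 lower of the 39, where 5.69% and 14.7% of all genes were called. A second quantile normalization gave 1 higher and 14 lower (7.32% and 11.1% of all genes). At 40 ppm 1 gene rose and 9 fell (background 8.74% higher and 6.24% lower), and at 20 ppm 0 rose and 2 fell (0.497% and 0.959%). At 1, 5 and 10 ppm no gene was called by limma (background 0%, 0.0526% and 0%), with 0, 3 and 1 of the 39 at an unadjusted p under 0.05. Those were Rrm1, Bub1b and Ccna2 at 5 ppm and Ccna2 at 10 ppm. In a whole-liver sample, fewer cells of a type and less RNA per cell cannot be told apart.

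The median change of the 25 G1/S genes was -0.09 at 1 ppm, -0.07 at 5 ppm, -0.12 at 10 ppm, -0.24 at 20 ppm, -0.22 at 40 ppm and -0.21 at 120 ppm. For the 14 measured G2/M genes it was 0.01, -0.00047, 0.01, -0.03, -0.08 and -0.02 at the same concentrations, and for all genes it was between -0.02 and 0.04. Of the G1/S genes 0 rose and 2 fell at 20 ppm, 0 rose and 8 fell at 40 ppm, and 1 rose and 9 fell at 120 ppm. Of the G2/M genes 0 were called by limma at 20 ppm (2 had an unadjusted p under 0.05), 1 rose and 1 fell at 40 ppm, and 2 rose and 2 fell at 120 ppm. The difference between the phases was not tested. Most of the measured G2/M genes lay below the median of all probe sets, while few of the G1/S genes did. Signal over background limits what can be seen there.

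**Figure D1:**
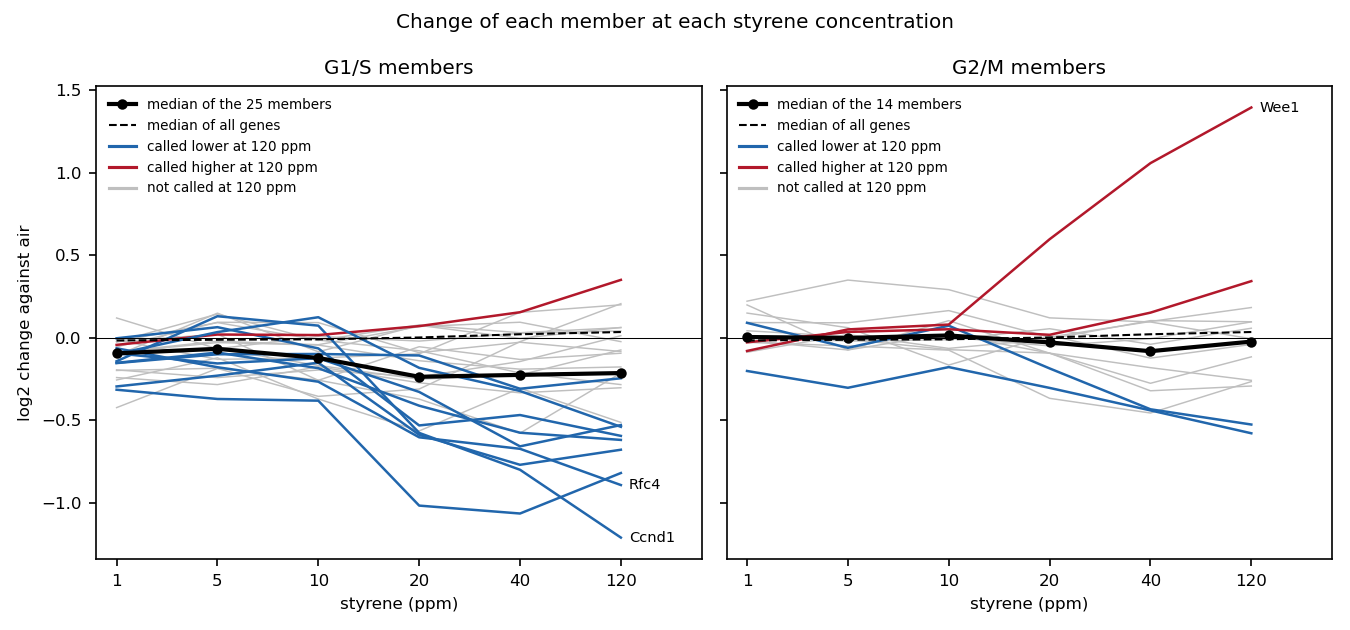
Change of each gene against air on the log2 scale (y) at each styrene concentration (x, evenly spaced by group), with G1/S genes on the left and G2/M genes on the right. Blue and red lines are genes called lower and higher at 120 ppm, the thick line is the median of the phase and the dashed line that of all genes. The G1/S median lies at -0.24, -0.22 and -0.21 at 20, 40 and 120 ppm, and the G2/M median at -0.03, -0.08 and -0.02.

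Averaged over its 25 genes, the G1/S log2 level was 4.716 to 4.862 in the 120 ppm livers, against 4.983 to 5.208 in the air livers, so the groups did not overlap. The average over the 14 G2/M genes was 3.398 to 3.536 at 120 ppm, against 3.377 to 3.61 in air. The 120 ppm values lay within the air range. That average includes Wee1, which rose by 1.39. Of the other 13 genes 8 had a negative and 5 a positive change at 120 ppm, with a median of -0.04. At 40 ppm 9 were negative and 4 positive, with a median of -0.12. The G1/S means by group were 5.064 in air, 4.942 at 1 ppm, 4.997 at 5 ppm, 4.943 at 10 ppm, 4.803 at 20 ppm, 4.771 at 40 ppm and 4.787 at 120 ppm, with SDs of 0.0493 to 0.186 (n = 5 each). The 20, 40 and 120 ppm means differed from each other by less than the SD at 20 ppm, 0.158.

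**Figure D2:**
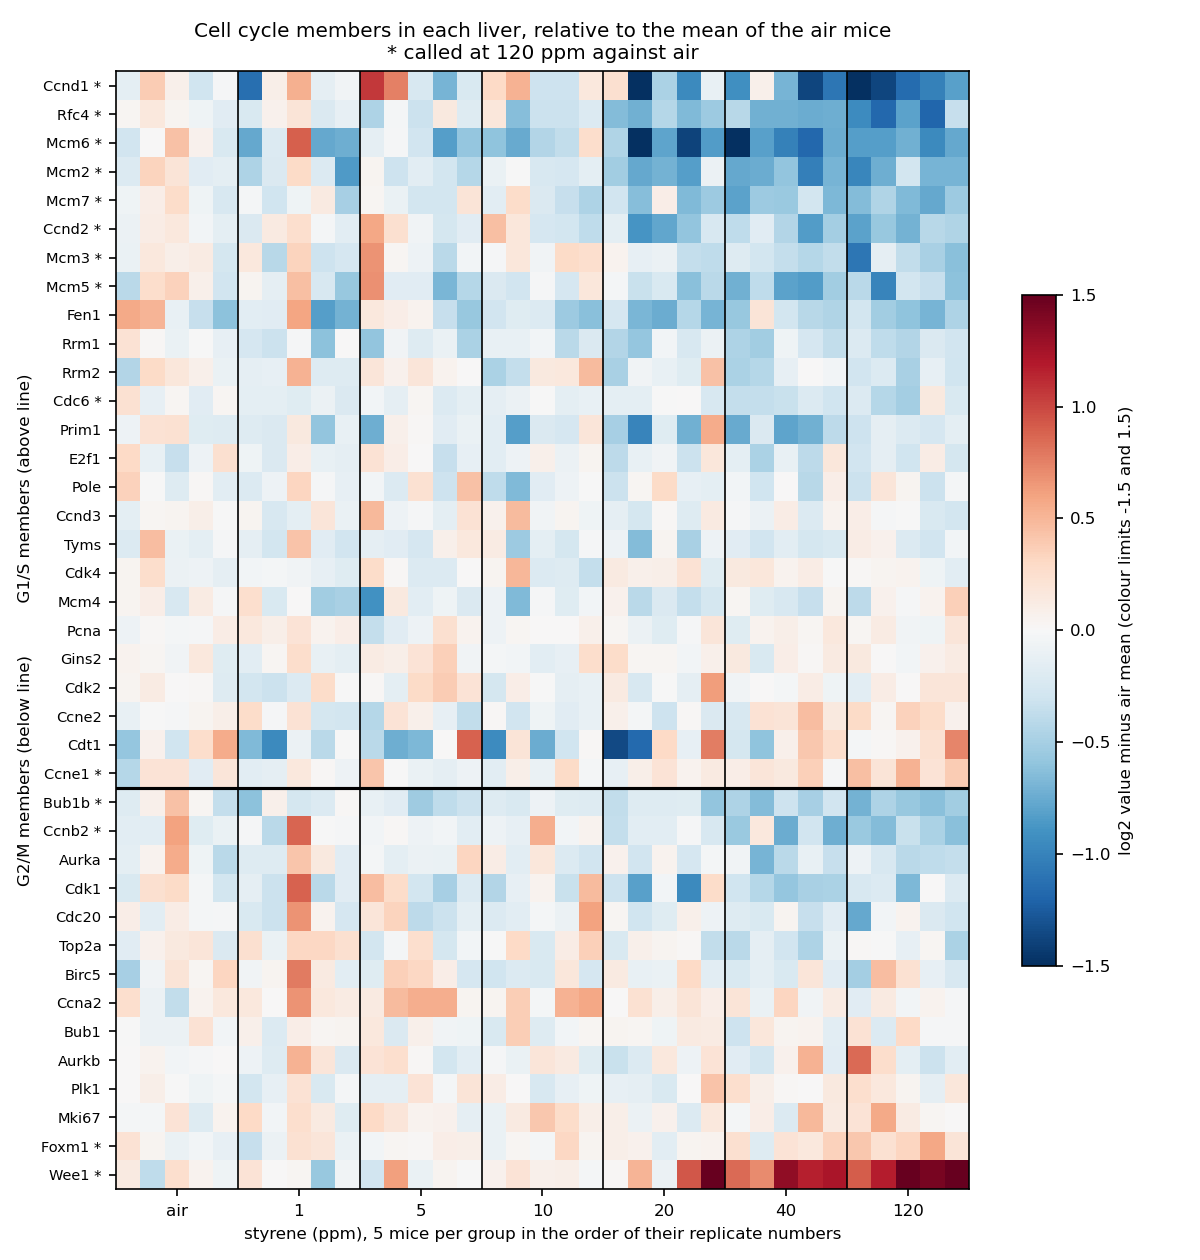
Each measured gene (rows, G1/S above and G2/M below the line) in each of the 35 livers (columns, by concentration), coloured by its log2 value minus the mean of the 5 air livers. Asterisks mark the 14 genes called at 120 ppm. Blue fills the upper rows from 20 ppm on, Wee1 in the last row turns red there, and Pcna, Mki67 and Plk1 stay pale.

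Of the 6 MCM2-7 subunits, which form the ring of the replicative helicase, 1 fell at 20 ppm, 4 at 40 ppm and 5 at 120 ppm. Their median change was -0.37, -0.62 and -0.58 at these concentrations, where 0.959%, 6.24% and 7.99% of all genes were called lower. The exception at 120 ppm was Mcm4, with a change of 0.01 (adjusted p = 0.965).

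Mcm2 had log2 values of 4.41, 4.66, 5.11, 4.69 and 4.69 in the 120 ppm livers, against 5.18, 5.72, 5.58, 5.22 and 5.24 in the air livers. Every 120 ppm liver was below every air liver. Its group means were 5.39 in air, 5.10, 5.16 and 5.24 at 1, 5 and 10 ppm, 4.8 at 20 ppm, 4.62 at 40 ppm and 4.71 at 120 ppm. Mcm2 fell by 0.68 at 120 ppm (SE 0.153, adjusted p = 0.00254) and by 0.77 at 40 ppm (adjusted p = 0.00111), and had -0.59 at 20 ppm (adjusted p = 0.0511, called in 8 of 20 alternative settings).

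Mcm6 is the subunit that was called at the lowest concentration. It had 4.99, 4.99, 5.09, 4.86 and 5.04 at 120 ppm, against 5.53, 5.82, 6.25, 5.88 and 5.58 in air. The 20 ppm livers had 5.36, 4.21, 5.02, 4.42 and 4.97, also all below the air livers. Mcm6 fell by 1.02 at 20 ppm (SE 0.244, adjusted p = 0.0315), by 1.06 at 40 ppm (adjusted p = 0.00357) and by 0.82 at 120 ppm (adjusted p = 0.0177). The 1 ppm group held both a high liver at 6.71 and others from 5.04 to 5.61, with a mean of 5.50 ± 0.72 (SD, n = 5). The call at 20 ppm was lost in 7 of 20 alternatives, in a fit of the 2 groups alone and without any single one of air livers 2, 3 and 4 or 20 ppm livers 2, 4 and 5, and the call at 120 ppm without air liver 3 (adjusted p = 0.0606).

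Mcm7 had 5.62, 5.82, 5.61, 5.5 and 5.72 at 120 ppm, against 6.2, 6.37, 6.54, 6.21 and 6.03 in air, again with no overlap. Its group means were 6.27 in air, 6.12, 6.18 and 6.09 at 1, 5 and 10 ppm, 5.86 at 20 ppm, 5.70 at 40 ppm and 5.65 at 120 ppm. It fell by 0.62 at 120 ppm (SE 0.141, adjusted p = 0.00265) and by 0.57 at 40 ppm (adjusted p = 0.00592). The calls of Mcm2 and Mcm7 at 40 and 120 ppm held in all 20 alternative settings.

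Mcm3 had 2.61, 3.56, 3.32, 3.21 and 3.07 at 120 ppm, against 3.59, 3.85, 3.78, 3.81 and 3.43 in air. The groups overlapped by a single liver, and the lowest value, 2.61, carried part of the change. Mcm3 fell by 0.54 (SE 0.158, adjusted p = 0.0163), and without that liver the change was -0.40 (adjusted p = 0.0699).

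Mcm5 had 3.87, 3.28, 4, 3.92 and 3.65 at 120 ppm, against 3.87, 4.53, 4.62, 4.35 and 3.98 in air. The 40 ppm livers had 3.55, 3.89, 3.47, 3.43 and 3.75. Both styrene groups overlapped air near its lowest livers. Mcm5 fell by 0.53 at 120 ppm (SE 0.191, adjusted p = 0.0486) and by 0.66 at 40 ppm (adjusted p = 0.0189). The call at 120 ppm was lost in 7 of 20 alternatives, each of which left out a liver (air 2, 3 or 4, or 120 ppm 1, 2, 4 or 5), and the call at 40 ppm without air liver 2 or 3 (adjusted p = 0.0528 and 0.065).

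Cdc6, which loads the helicase on origins, had 2.36, 2.14, 2.06, 2.71 and 2.34 at 120 ppm, against 2.79, 2.44, 2.6, 2.4 and 2.6 in air. Its probe set was dim, with a mean of 2.42 at percentile 3.94 of all probe sets, where the lowest value was 1.74. Signal over background limits what can be seen at that level. The 40 ppm livers had 2.21, 2.21, 2.23, 2.36 and 2.27, all below the air livers. It fell by 0.31 at 40 ppm (SE 0.0869, adjusted p = 0.0155) and by 0.24 at 120 ppm (adjusted p = 0.0442), a call that was lost in 9 of 19 alternatives, 7 of which left out a liver (air 1, 3 or 5, or 120 ppm 1, 2, 3 or 5). The call at 40 ppm was lost without air liver 1 (adjusted p = 0.0555). Cdt1, its partner in loading, had 0.21 at 120 ppm (adjusted p = 0.69), and Gins2, a subunit of the GINS complex that activates the helicase, had 0.06 (adjusted p = 0.679).

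**Figure D3:**
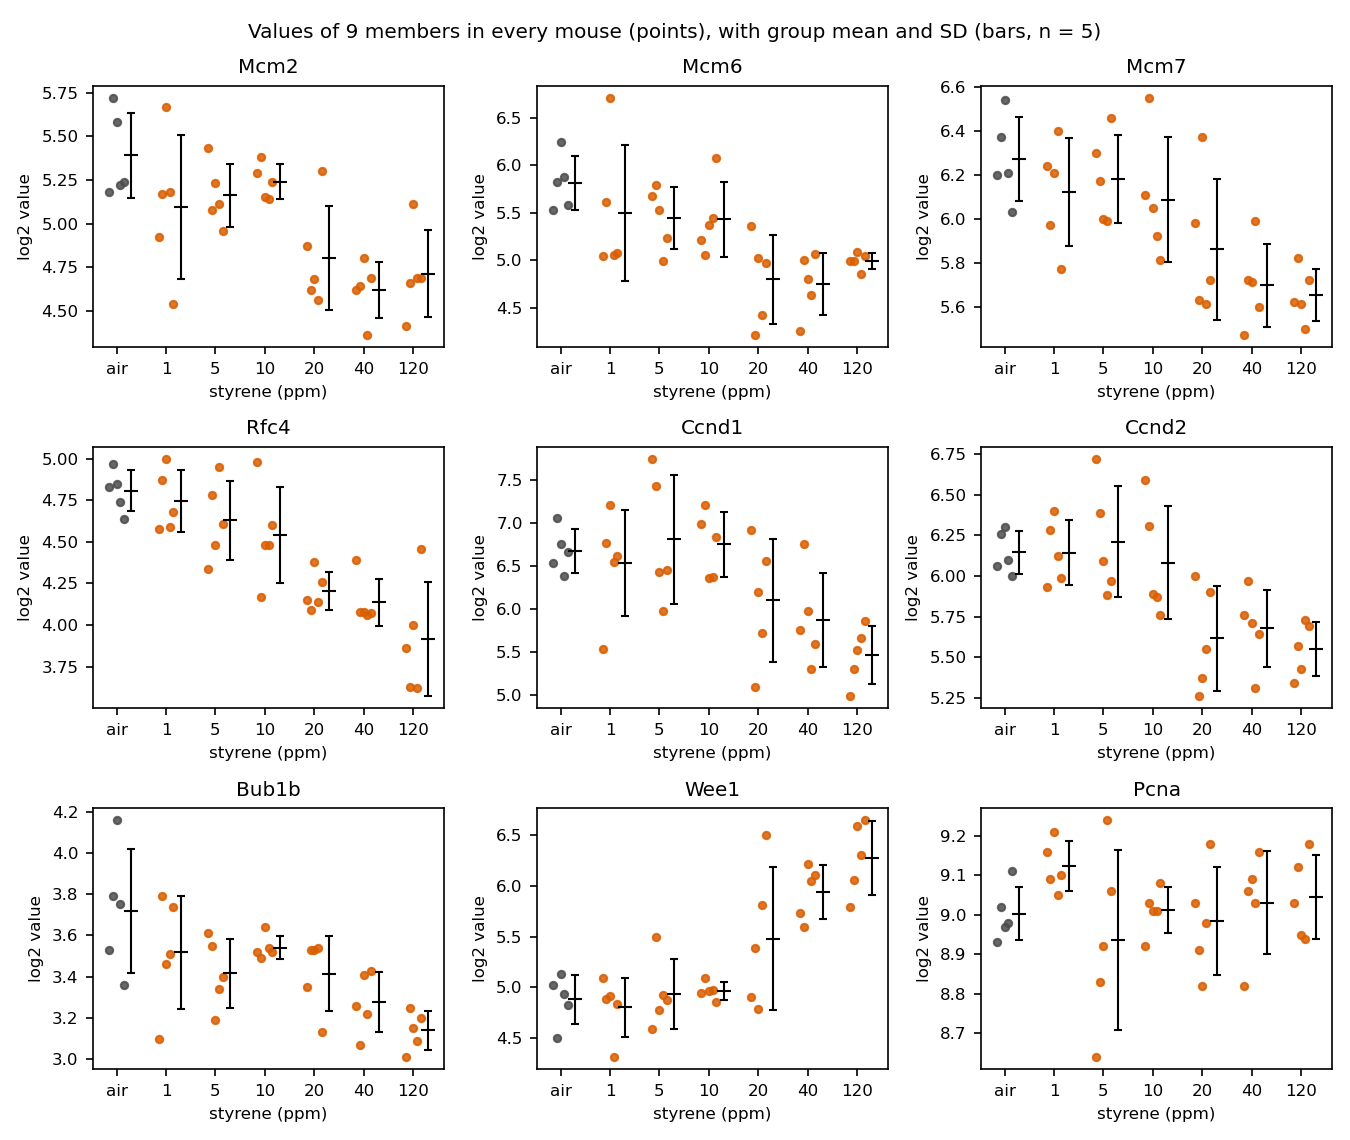
Log2 values (y, a separate range in each panel) of 9 genes in every liver (points) by styrene concentration (x), with the mean and SD of each group of 5 beside them. The 120 ppm points lie below all air points for Mcm2, Mcm6, Mcm7, Rfc4, Ccnd1, Ccnd2 and Bub1b, above them for Wee1, and among them for Pcna.

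At the fork, Rfc4 stood out. It encodes a subunit of the clamp loader, which opens PCNA and closes it around DNA. Rfc4 had 3.86, 3.63, 4, 3.62 and 4.46 at 120 ppm, against 4.83, 4.97, 4.85, 4.74 and 4.64 in air. The 20 ppm livers had 4.15, 4.09, 4.38, 4.14 and 4.26, and the 40 ppm livers 4.39, 4.08, 4.08, 4.06 and 4.07. All 15 livers of the 20, 40 and 120 ppm groups lay below the lowest air liver. Its group means were 4.81 in air, 4.74 at 1 ppm, 4.63 at 5 ppm, 4.54 at 10 ppm, 4.21 at 20 ppm, 4.14 at 40 ppm and 3.92 at 120 ppm, a descent at each step. Rfc4 fell by 0.60 at 20 ppm (adjusted p = 0.0217), by 0.67 at 40 ppm (adjusted p = 0.00128) and by 0.89 at 120 ppm (SE 0.136, adjusted p = 5.45e-05), a 1.855-fold lower value. The call at 20 ppm was lost in 6 of 20 alternatives, in a fit of the 2 groups alone and without air liver 2 or 3 or 20 ppm liver 2, 4 or 5, and those at 40 and 120 ppm in 0.

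Pcna, the sliding clamp itself, had 9.03, 9.12, 8.95, 8.94 and 9.18 at 120 ppm, against 8.93, 9.02, 8.97, 8.98 and 9.11 in air. The groups lay on top of each other. The change was 0.04 (SE 0.0853, adjusted p = 0.769), and its sign was negative after centring each array. Group means from air to 120 ppm ranged from 8.94 ± 0.227 (5 ppm) to 9.12 ± 0.0622 (1 ppm, SD, n = 5 each).

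Prim1, the catalytic primase subunit, fell by 0.58 at 40 ppm (adjusted p = 0.045), where its livers had 3.55 to 4.13 against 4.15 to 4.58 in air, but had -0.21 at 120 ppm (adjusted p = 0.469). Its call at 40 ppm was lost in 8 of 20 alternatives, each without a liver (air 1, 2, 3 or 4, or 40 ppm 1, 3, 4 or 5). Fen1, the flap nuclease of lagging-strand synthesis, had -0.51 at 120 ppm (adjusted p = 0.0829), and Pole, the leading-strand polymerase, -0.09 (adjusted p = 0.691). Among the enzymes that supply deoxynucleotides, the ribonucleotide reductase subunits Rrm1 and Rrm2 had -0.30 and -0.28 at 120 ppm (adjusted p = 0.0715 and 0.223), and thymidylate synthase (Tyms) had -0.07 (adjusted p = 0.751). Rrm1 and Fen1 were called lower at 120 ppm after this median centring of the arrays.

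Among the G1 cyclins, Ccnd1 (cyclin D1) had the largest change of the G1/S genes at 120 ppm. It had 4.99, 5.3, 5.52, 5.66 and 5.86 there, against 6.53, 7.06, 6.75, 6.38 and 6.66 in air, with a gap between the groups. At 20 ppm its livers were spread from 5.1 to 6.92 and at 40 ppm from 5.3 to 6.75, on both sides of the lowest air liver. Group means were 6.67 in air, 6.53, 6.81 and 6.75 at 1, 5 and 10 ppm, 6.10 at 20 ppm, 5.88 at 40 ppm and 5.47 at 120 ppm. Ccnd1 fell by 1.21 at 120 ppm (SE 0.317, adjusted p = 0.00776). It had -0.80 at 40 ppm (adjusted p = 0.0849, called lower in 4 of 20 alternative settings). At 20 ppm it had -0.58 (adjusted p = 0.488), and -0.33 without liver 2 of that group (adjusted p = 0.808).

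Ccnd2 (cyclin D2) had 5.34, 5.57, 5.43, 5.73 and 5.69 at 120 ppm, against 6.06, 6.26, 6.3, 6.1 and 6 in air. The 20 and 40 ppm livers, at 5.26 to 6.00 and 5.31 to 5.97, also did not overlap with air at full precision. Ccnd2 fell by 0.59 at 120 ppm (SE 0.159, adjusted p = 0.00896) and by 0.47 at 40 ppm (adjusted p = 0.0435), and had -0.53 at 20 ppm (adjusted p = 0.102). The call at 40 ppm was lost without the same 8 livers, 1 at a time, as that of Prim1. Ccnd3 (cyclin D3), which partners the same kinases, had -0.08 at 120 ppm (adjusted p = 0.633) by the probe set that stood for it.

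Ccne1 (cyclin E1) was the G1/S gene that rose. Its livers had 3.69 to 4.02 at 120 ppm, against 3.07 to 3.7 in air, and the change was 0.35 (SE 0.116, adjusted p = 0.0305). The call was lost in 8 of 20 alternatives, after centring, quantile normalization and a fit of the 2 groups alone, and without air liver 1 or 4 or 120 ppm liver 1, 3 or 5. Ccne2 (cyclin E2) had 0.20 (adjusted p = 0.253), and the kinases Cdk2 and Cdk4 had 0.06 and -0.02 (adjusted p = 0.756 and 0.908).

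E2f1, the transcription factor that RB restrains, had 3.61, 3.77, 3.6, 4.01 and 3.64 at 120 ppm, against 4.2, 3.79, 3.55, 3.82 and 4.14 in air. The ranges overlapped over most of their length. Its change was -0.18 (SE 0.126, adjusted p = 0.335), and its group means lay between 3.71 and 3.90.

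At G2/M, Wee1 had the largest change of the 39 genes. It encodes the kinase that phosphorylates CDK1 and delays entry into mitosis, and in mouse liver its transcript follows the circadian clock. Wee1 had 5.79, 6.06, 6.59, 6.3 and 6.65 at 120 ppm, against 5.02, 4.5, 5.13, 4.93 and 4.82 in air. The 40 ppm livers had 5.73, 5.59, 6.21, 6.05 and 6.11, and the 20 ppm livers 4.9, 5.39, 4.79, 5.81 and 6.5. Every liver at 40 and 120 ppm was above every air liver, while the 20 ppm group was divided, with 2 livers inside the air range and 3 above it. Group means were 4.88 in air, 4.8 at 1 ppm, 4.93 at 5 ppm, 4.96 at 10 ppm, 5.48 at 20 ppm, 5.94 at 40 ppm and 6.28 at 120 ppm. Wee1 rose by 1.39 at 120 ppm (SE 0.22, adjusted p = 7.7e-05), a 2.629-fold higher value, and by 1.06 at 40 ppm (adjusted p = 0.00161), and had 0.60 at 20 ppm (adjusted p = 0.213). Without the highest 20 ppm liver, the fifth, the change at 20 ppm was 0.34 (adjusted p = 0.585). That array also had a 3' minus 5' Gapdh difference of -0.402 and a hepatocyte marker level of 13.12, the lowest of its group in both. The calls at 40 and 120 ppm held in all 20 alternatives.

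Bub1b, which encodes the spindle checkpoint kinase BUBR1, had 3.01, 3.25, 3.15, 3.09 and 3.2 at 120 ppm, against 3.53, 3.79, 4.16, 3.75 and 3.36 in air. The groups did not overlap. It fell by 0.58 at 120 ppm (SE 0.12, adjusted p = 0.00123) and by 0.44 at 40 ppm (adjusted p = 0.0128), and its group means were 3.72 in air, 3.52, 3.42 and 3.54 at 1, 5 and 10 ppm, 3.42 at 20 ppm, 3.28 at 40 ppm and 3.14 at 120 ppm. Its call at 40 ppm was lost without air liver 3 (adjusted p = 0.064).

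Ccnb2 (cyclin B2), a partner of CDK1, had 3.07, 2.98, 3.3, 3.16 and 3.01 at 120 ppm, against 3.47, 3.47, 4.24, 3.45 and 3.53 in air. The groups did not overlap, and air liver 3 stood apart at 4.24. Ccnb2 fell by 0.52 (SE 0.174, adjusted p = 0.0318). Without air liver 3 the change was -0.37 (adjusted p = 0.137), and the call was also lost without 120 ppm liver 1, 2 or 5 (adjusted p = 0.0553, 0.065 and 0.0607) and under array weights.

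Foxm1, a transcription factor that drives G2/M genes, had 3.78, 3.6, 3.7, 3.96 and 3.57 at 120 ppm, against 3.59, 3.42, 3.28, 3.34 and 3.25 in air, with an overlap of a single liver on each side. Its main probe set rose by 0.34 (SE 0.103, adjusted p = 0.018), a call that was lost after centring (adjusted p = 0.077), after quantile normalization and without 120 ppm liver 4 (adjusted p = 0.0636). Another probe set of the gene was called in the opposite direction.

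Mki67, the gene of the proliferation antigen Ki-67, had 3.39, 3.76, 3.31, 3.22 and 3.2 at 120 ppm, against 3.16, 3.16, 3.39, 3 and 3.24 in air. The groups overlapped, and the change was 0.18 (SE 0.121, adjusted p = 0.291), or 0.09 without 120 ppm liver 2. Cdk1, the mitotic kinase, had 3.79, 3.82, 3.36, 4.04 and 3.82 at 120 ppm, against 3.8, 4.27, 4.32, 4 and 3.76 in air. Its change was -0.26 at 120 ppm (SE 0.22, adjusted p = 0.413, or -0.16 without 120 ppm liver 3) and -0.46 at 40 ppm (adjusted p = 0.161), where its livers, from 3.45 to 3.73, all lay below air. Top2a, the topoisomerase that untangles replicated chromosomes, had 3.08, 3.06, 2.94, 3.09 and 2.59 at 120 ppm, against 2.89, 3.13, 3.21, 3.24 and 2.85 in air. Its change was -0.12 (SE 0.123, adjusted p = 0.537).

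The other 7 measured G2/M genes were not called at 120 ppm, though Aurka had an unadjusted p of 0.0497. They are the mitotic kinases Aurka (-0.29), Aurkb (0.10), Plk1 (0.10) and Bub1 (0.06), the anaphase activator Cdc20 (-0.26), the passenger protein gene Birc5 (-0.04) and cyclin A2, Ccna2 (-0.01), with adjusted p from 0.148 to 0.982. Ccna2 had 0.35 at 5 ppm (unadjusted p = 0.0113, adjusted p = 0.459) and 0.29 at 10 ppm (unadjusted p = 0.032, adjusted p = 0.749).

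Counting livers in place of the test, 9 genes had every 120 ppm liver below every air liver and 1 had every one above, where 6.14% and 8.22% of all genes did. At 40 ppm the counts were 8 below and 1 above (5.54% and 8.08% of all genes), and at 20 ppm 3 below and 0 above (1.3% and 1.19%).

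Over all 7 groups, the F test called 10 of the 39 genes (background 21.5%), 7 of 25 at G1/S and 3 of 14 at G2/M. A slope on log2(ppm + 1) called 3 genes higher and 14 lower (background 20.1% and 12.9%), 1 and 10 of them at G1/S. At G2/M it called 2 higher and 4 lower. The 4 were Bub1b, Ccnb2, Aurka (-0.05 per unit, adjusted p = 0.0195) and Top2a (-0.04, adjusted p = 0.0426). The steepest slopes were those of Wee1, 0.22 per unit (adjusted p = 1.87e-06), Ccnd1, -0.18 (adjusted p = 0.00111), Mcm6, -0.14 (adjusted p = 0.000646) and Rfc4, -0.14 (adjusted p = 4.25e-07). The 120 ppm livers were also set against the 40 ppm livers, a comparison that uses no air liver. None of the 39 genes was called by limma there (background 0.0409%), and 0 had an unadjusted p under 0.05. For Wee1 that difference was 0.34 (SE 0.22, adjusted p = 0.979), for Ccnd1 -0.41 (SE 0.317, adjusted p = 1) and for Rfc4 -0.22 (SE 0.136, adjusted p = 0.969). The comparisons against air share the same 5 air livers.

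Of the 39 genes 23 had further probe sets. At 120 ppm the probe sets had the same sign in 16 of these and differed in sign in 7. Ccnd1 was lower by all 3 of its probe sets (-1.21, -1.38 and -0.85, each called). Ccnd2 was called lower by 3 of 6 (-0.59, -0.995 and -0.46), with 0.14 at the dimmest. Wee1 was higher by both (1.39 and 0.52, each called). The second probe sets of Mcm2 (-0.23), Mcm3 (-0.31), Mcm7 (-0.31) and Rfc4 (-0.31) had the same sign and were not called. That of Rfc4 had -0.51 at 20 ppm and -0.18 at 40 ppm (adjusted p = 0.107 and 0.466), so it did not descend at each step. The second probe set of Mcm5 had 0.15 at 120 ppm (adjusted p = 0.224). Bub1b was called by its main probe set only, the other 2 having -0.08 and 0.21 (adjusted p = 0.662 and 0.183). Foxm1 was called in opposite directions, 0.34 by the main probe set and -0.44 by another (adjusted p = 0.0116), with 0.26 and -0.06 at the remaining 2 (adjusted p = 0.137 and 0.66). Ccnd3 had a second, dimmer probe set that was called higher, 0.50 (adjusted p = 0.0269), and also at 40 ppm, 0.56 (adjusted p = 0.0162). It was the only 1 of 37 further probe sets called higher at 40 ppm, where 4 were called lower. Those were 1 each of Ccnd1 (-1.03, adjusted p = 0.0392), Ccnd2 (-0.75, adjusted p = 0.0134), Mcm3 (-0.37, adjusted p = 0.0438) and Rrm1 (-0.53, adjusted p = 0.0491).

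**Figure D4:**
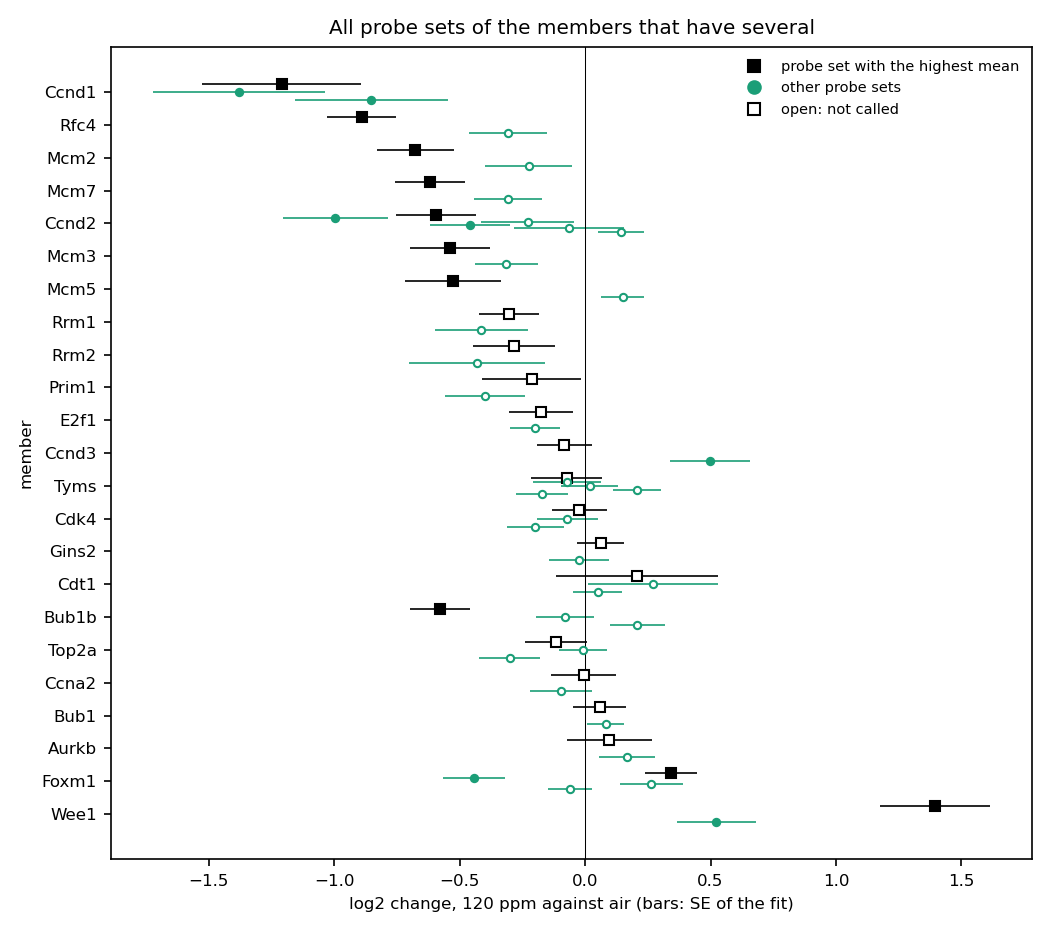
Change at 120 ppm against air (x, log2, bars are the SE of the fit) of every probe set of the 23 genes that have several (y). Black squares are the probe sets with the highest mean, green circles the others, and open symbols were not called. The symbols of Ccnd1 and Wee1 lie on the same side of 0, whereas Foxm1 has filled symbols on both sides.

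Other genes of the cell cycle, from 7 lists of genes outside the 39, were read from the same fit. Their counts stand beside the shares of all genes at 120 ppm, 11.2% higher and 7.99% lower, and 5.69% and 14.7% after centring. Of 16 genes for origin recognition, firing and initiation, 2 rose at 120 ppm and 0 fell. They were Orc2, of the origin recognition complex, with 0.56 (adjusted p = 0.00862), and Cdc45, of the active helicase, with 0.43 (adjusted p = 0.019). After centring 1 rose and 1 fell, and Cdc45 was not called (adjusted p = 0.0616). After quantile normalization 0 rose and 0 fell, with Orc2 and Cdc45 at adjusted p = 0.0606 and 0.0511. Of 19 further fork proteins none was called by limma at 120 ppm, and after centring 0 rose and 3 fell. Of the 19, 4 had an unadjusted p under 0.05 at 120 ppm. Of 8 genes for nucleotide supply 2 rose and 3 fell, and after centring 0 rose and 3 fell. Cad and Umps, enzymes of pyrimidine synthesis, had -0.88 and -0.34 (adjusted p = 0.00923 and 0.0101), and Nme1, a nucleoside diphosphate kinase, had -0.55 (adjusted p = 0.000253).

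Of the 7 CDK inhibitors 2 rose and 0 fell. Cdkn1c (p57) had 4.733 ± 0.306 at 120 ppm and 4.005 ± 0.12 in air (SD, n = 5 each), a rise of 0.73 (adjusted p = 0.000848). Cdkn2c (p18) had 0.47 (adjusted p = 0.0439), a call lost with centring. Cdkn1a (p21) had 6.773 ± 1.45 at 120 ppm and 7.311 ± 1.05 in air (SD, n = 5 each), a spread wider than the change of -0.54 (adjusted p = 0.583), and Cdkn1b (p27) had 0.13 (adjusted p = 0.38). Of 16 RB, E2F and MuvB genes 2 rose and 1 fell. E2f3 rose by 0.79 (adjusted p = 0.000198) and E2f6, a repressor, fell by 0.34 (adjusted p = 0.0453), while Rb1 rose by 0.52 (adjusted p = 0.0368), a call lost with centring (adjusted p = 0.0937). Of 11 G1 regulators 2 rose and 0 fell, the transcription factor gene Myc with 0.77 (adjusted p = 0.0345) and the kinase gene Cdk6 with 0.42 (adjusted p = 0.0168), and after centring neither was called. Of 28 spindle and kinetochore genes 1 rose and 4 fell, and after centring 0 rose and 8 fell. Kif23, a motor of cytokinesis, fell by 0.71 (adjusted p = 0.00176), Stmn1, which destabilises microtubules, fell by 0.54 (adjusted p = 0.0128), and Kif11, a spindle motor, rose by 0.31 (adjusted p = 0.0246), a call lost with centring.

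**Figure D5:**
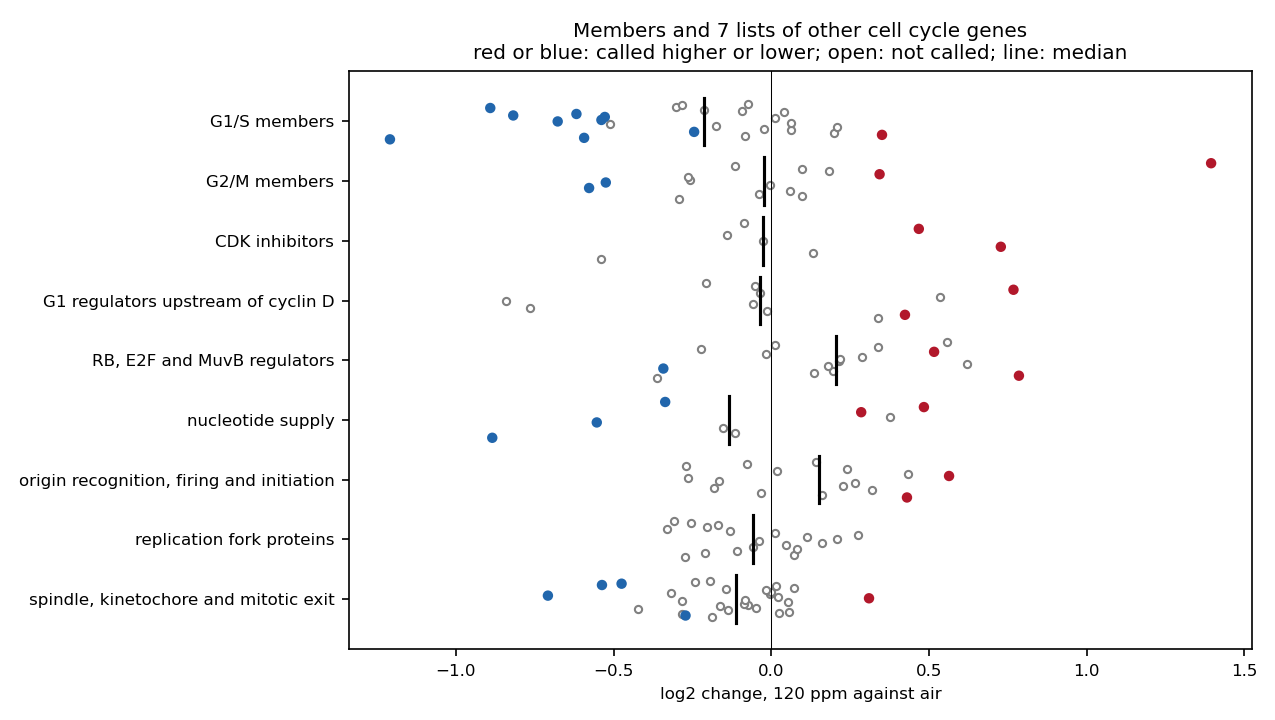
Change at 120 ppm against air (x, log2) of the 25 G1/S and 14 G2/M genes and of 7 lists of other cell cycle genes (y), 1 point per gene, with a line at the median of each list. Red and blue points were called higher and lower, and open points were not called. The G1/S points reach -1.21 (Ccnd1) and the fork proteins hold no called point.

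The tissue carried the markers of liver, with hepatocyte markers at a mean log2 level of 13.26 to 13.28 in the 120 ppm livers, against 13.2 to 13.26 in the air livers. Of 11 Kupffer cell markers 6 fell at 120 ppm and 0 rose, with a mean level of 6.495 to 7.116 at 120 ppm, against 6.971 to 7.979 in air. None of the 7 hepatocyte, 8 endothelial, 4 cholangiocyte and 7 T and NK cell markers was called by limma, with 1, 2, 0 and 2 of them at an unadjusted p under 0.05. Of 8 stellate markers 1 fell, of 5 B cell markers 2 rose and 1 fell, of 8 neutrophil markers 1 rose, and of 4 erythroid markers 1 rose and 1 fell. After centring, 8 of the Kupffer cell markers fell, the B cell markers had 0 higher and 2 lower, and 1 hepatocyte marker (Ttr, -0.21, adjusted p = 0.00508) and 1 T and NK cell marker (Cd3e, -0.39, adjusted p = 0.0241) were called lower. The difference between the 3' and 5' actin probe sets, a measure of RNA integrity, averaged 0.724 ± 0.109 in the 20 ppm livers, 0.706 ± 0.0702 in the 40 ppm livers and 0.717 ± 0.0506 in the 120 ppm livers, against 0.478 ± 0.0475 in air (SD, n = 5 each). The same difference for Gapdh was 0.12 ± 0.0484 at 120 ppm and 0.147 ± 0.0471 in air. The median of an array was 3.598 at 120 ppm and 3.503 in air. The part of Kupffer cell RNA, RNA integrity and array level in the changes of the 39 genes was not tested. Correlations between pairs of arrays were 0.965 to 0.995, and 14 of the 39 genes had a mean below 3.518, the median of all probe sets. At G1/S these were Cdc6, Gins2, Pole and Ccne2. At G2/M they were Ccna2, Ccnb2, Mki67, Top2a, Bub1, Bub1b, Aurka, Aurkb, Plk1 and Foxm1. The part of low signal in the difference between the phases was not tested. The numbers in the sample titles run in the order of the concentrations, so any effect of that order cannot be told apart from concentration.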

How the data were processed

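The deposited log2 values of 35 liver arrays, 1 per mouse and 5 per group, were used as given. RMA and Partek are named in the submitters' processing notes, with no version and no word on which did what. No source gives the log base. Base 2 was inferred from the range of the values, 1.74 to 14.23, so a fold change rests on that reading. Probe-level background correction and normalization are not given in the sources used here. Of 45141 probe sets 104 controls were left out. A probe set was named by the platform annotation where that listed 1 gene (28898 probe sets).

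All 45037 probe sets entered 1 limma fit (3.58.1, R 4.3.3) with a mean for each of 7 groups, 28 residual degrees of freedom and an empirical Bayes prior of 5.41, followed by contrasts of each concentration against air and of 120 against 40 ppm, a moderated F test and a slope on log2(ppm + 1). Adjusted p-values are Benjamini-Hochberg over all of them. The 39 genes got no test as a set. The number of arrays limits the precision. The 40 genes, the 7 lists of other genes and the marker lists were chosen with earlier results of these data known. Every measured gene is named with its change at 120 ppm. Values of each liver were given for the 10 called genes with the smallest p at 120 ppm, the 4 of the rest with the smallest F-test p, and Mki67, Top2a, Pcna, Cdk1, Mcm2, Ccnd1, Wee1 and E2f1. From each list up to 3 called genes were named, with Cdkn1a, Cdkn1b, Myc and Rb1. The labels name no batch.

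Data were also simulated at the spread of these arrays over 45037 probe sets, with independent normal noise and 200 probe sets changed. The simulated 120 ppm comparison recovered 32 of 50 changes of 0.5, 48 of 50 changes of 1, 48 of 50 changes of -1 and 50 of 50 changes of 2. In the livers the 120 ppm comparison called 8727 probe sets, so its adjustment was less strict. The recovered shares therefore do not give the sensitivity of the comparison in the livers. Alternatives were centring of each array, a second quantile normalization, the brighter part of the probe sets, an intensity-dependent robust prior, array weights, a replicate block, the place of the animal within its group, the probe set with the largest variance, a fit of the compared groups alone, and leaving out each liver. A fit without the 2 arrays that correlated least with the others (5 ppm replicate 1 and 10 ppm replicate 2) was added after seeing the data.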

Additional observations from a re-analysis of the deposited data

Results flagged for a closer look

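In 6 of 126 groups of 5 livers (18 genes in 7 groups), the highest or lowest liver stood apart from its nearest neighbour by more than Dixon's critical value of 0.71 of the group's range, a share of 4.76%, and chance alone flags about 1 in 20 groups. For Rfc4 the first 40 ppm liver was high at 4.39, next to 4.08. For Foxm1 the third 20 ppm liver was low at 3.22, next to 3.42. For Ccnb2 the third 10 ppm liver was high at 4.18, next to 3.68, and the third air liver was high at 4.24, next to 3.53. For Top2a the second 1 ppm liver was low at 2.96, next to 3.3. For Cdk1 the third 1 ppm liver was high at 4.91, next to 3.9. That liver also had the highest average of the 35 livers over the G1/S genes (5.27), the G2/M genes (3.858) and MCM2-7 (5.196). The third air liver had the highest G2/M average of the air livers, 3.61. Groups of different genes come from the same livers, so they are not independent.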

How the results depend on the processing

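At 120 ppm the count of called genes was 10 to 15 in the alternatives that kept all livers, the lowest in the brighter part of the probe sets. The 14 genes below the median are not tested in that part, and the main fit called 4 of them at 120 ppm and 2 at 40 ppm. The count at 120 ppm was 9 to 14 when a liver was left out, the lowest without 120 ppm replicate 1. At 40 ppm it was 9 to 14, and 6 to 12 when a liver was left out, the lowest without air replicate 3. At 20 ppm it was 2 to 3 in most alternatives that kept all livers, the third gene being Mcm2, with 4 under array weights, 0 in a fit of the 20 ppm and air groups alone, and 0 to 3 when a liver was left out. The slope called 17, with 11 in the brighter part of the probe sets, where fewer genes are tested, and 14 to 18 when a liver was left out. At 120 against 40 ppm the count stayed at 0 in every alternative run. The median change of the G1/S genes at 40 ppm was -0.38 after a second quantile normalization, and that of the G2/M genes at 120 ppm was -0.15 in the brighter part of the probe sets and with the probe sets of largest variance. The cause of these shifts was not tested. By correlation, replicate numbers did not pair the mice. Same-numbered arrays correlated at -0.394 to 0.374 in their deviations from the group means (median 0.0268), and 8 of 35 arrays correlated best with their own number. Some single genes did follow the replicate number, as given under the other observations. With the number as a block, 3, 10 and 14 genes were called at 20, 40 and 120 ppm. Some small changes turned sign. Foxm1 at 20 ppm had -0.0085 after centring, -0.0038 after quantile normalization, -0.037 with the probe set of largest variance and as low as -0.013 without a liver, and with that probe set it had -0.27 at 40 ppm and -0.44 at 120 ppm. Mki67 at 20 ppm had -0.022 after centring, -0.016 after quantile normalization, -0.022 under array weights and as low as -0.044 without a liver. Pcna at 20 ppm had 0.00076 after quantile normalization and up to 0.022 without a liver, at 40 ppm -0.042 after centring and as low as -0.0046 without a liver, and at 120 ppm -0.054 after centring. Depth has no counterpart on arrays, and 14 of the 39 genes lay below the median probe set, where signal over background limits what can be seen.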

Other observations

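Within the groups, the log2 values were also fitted on the place of each animal in the order of the numbers in the sample titles. This place is the same as the replicate number, and concentration was in the model. Of the 39 genes 3 had a slope at an adjusted p under 0.05 by limma, a share of 7.69%, where 3.11% of all genes did. Cdt1, which loads the MCM helicase, had 0.259 per place (adjusted p = 0.000358), Fen1 had -0.135 (adjusted p = 0.0183) and Cdk4 had -0.0668 (adjusted p = 0.0364). With the place in the fit, Fen1 was called at 120 ppm against air (-0.51, adjusted p = 0.0341). For Cdt1 the change at 120 ppm was 0.21 with the place in the fit (adjusted p = 0.539). What the numbers stand for is not given in the sources used here.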
